A study of Mus musculus with 19 samples.

Results

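The genes followed here control the step from G1 into S phase, in a mouse series on leukemia driven by mutant FLT3. They are the D-type cyclins Ccnd1, Ccnd2 and Ccnd3, the kinases Cdk4 and Cdk6, the kinase inhibitors Cdkn2a, Cdkn2b, Cdkn2c and Cdkn1b, and the retinoblastoma gene Rb1. They were chosen by name from the series' gene count table, in which they are 10 of 23458 gene rows. All 10 passed the filter on low counts and were tested among 15508 genes, though Cdkn2a and Cdkn2b had few counts in most libraries.

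In a cell that has received a growth signal, D-type cyclins bind CDK4 or CDK6, and the active kinase phosphorylates the retinoblastoma protein RB1. Phosphorylated RB1 releases E2F transcription factors, which switch on the genes of DNA replication. Inhibitors of the INK4 family, encoded by Cdkn2a, Cdkn2b and Cdkn2c, bind CDK4 and CDK6 and keep D cyclins off them. Cdkn1b encodes p27, an inhibitor of the CIP/KIP family that acts mainly on cyclin E with CDK2. Cdkn2a also encodes ARF, an unrelated protein read from another first exon, which holds back MDM2 and so stabilises p53. In the thymus cyclin D3 is known for the expansion of T cell precursors, and loss of the Cdkn2a locus is a known event in T cell leukemia.

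The series measured polyA-selected RNA in C57BL/6 mice. In its retroviral model, marrow cells carrying Mx1-cre were transduced with MSCV vectors and transplanted into lethally irradiated recipients, and CD4+CD8+ cells of the graft were sorted. WT-GFP (n = 2) are Mx1-cre+;Dnmt3a+/+ thymocytes with MSCV_GFP alone, and KO-GFP (n = 2) are Mx1-cre+;Dnmt3a f/f thymocytes with MSCV_GFP. WT-ITD (n = 3) and KO-ITD (n = 4) are leukemias of the same genotypes with MSCV_FLT3-ITD-GFP, which carries FLT3 with an internal tandem duplication. Mx1-cre is an interferon-responsive Cre, so every retroviral group carries it, the Dnmt3a+/+ groups included. In the knock-in model, unsorted bulk marrow with 1 Flt3 allele carrying the duplication (Flt3+/ITD) was collected. Its groups are pre-leukemic marrow that is Dnmt3a f/f but without Cre (ER-cre-, n = 3), ER-cre+ Dnmt3a f/+ leukemia (n = 2) and ER-cre+ Dnmt3a f/f leukemia (n = 1), and the 3 leukemias were set together against the pre-leukemic marrow, so that disease, Cre and the state of Dnmt3a cannot be told apart there. Animal age is not given in the labels, and libraries are called biological replicates without being tied to animals, so p-values measure only the spread between these libraries.

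The GFP libraries came from thymus, as did WT-ITD 1 and 3 and KO-ITD 3 and 4, and WT-ITD 2 and KO-ITD 1 and 2 came from marrow. Donor marrow had been enriched for Sca-1 in KO-ITD and WT-ITD 1 and for ckit in KO-GFP and WT-ITD 2, and was whole in WT-ITD 3. The sample descriptions do not give it for WT-GFP, the control of WT-ITD. Enrichment and FLT3-ITD cannot be told apart in KO-ITD against KO-GFP. KO-ITD 3 and 4 and all knock-in libraries were submitted later than the rest. Fits on first-submission libraries thus set KO-ITD 1 and 2 from marrow against KO-GFP from thymus. Fits on thymus libraries set KO-ITD 3 and 4 against KO-GFP of the earlier submission. Neither fit separates FLT3-ITD from both tissue and submission in KO-ITD against KO-GFP. KO-ITD 4 stood apart, with a mean log2 CPM (CPM is the library-size normalised count, scaled by edgeR's TMM factors) of 5.52 over 16 replication genes and 4.89 over 10 mitosis genes, where the other 16 libraries had at least 6.82 and 6.16. WT-ITD 3 stood apart from WT-ITD 1 and 2 in Ccnd2, Cdkn2a and Cdkn2b. Each library held 4933886 to 25331906 counts. Summed over 12 markers of double-positive thymocytes, the GFP libraries had 15920 to 18700 CPM, the retroviral leukemias 2795 to 11870 and the knock-in libraries 94.2 to 450.1. Over 9 stromal markers (collagens, decorin and others), GFP libraries had 6.69 to 9.08 CPM in sum, WT-ITD 4.11 to 133.4 and KO-ITD 137.5 to 2811, highest in KO-ITD 4. The targeted gene, Dnmt3a, ranged over 250.1 to 257.2 CPM for WT-GFP, 144.2 to 207.1 for KO-GFP, 180.2 to 237.7 for WT-ITD and 53.03 to 126.7 for KO-ITD. It was at 129.6 to 153.5 CPM in pre-leukemic marrow and 36.5 to 55.0 in the knock-in leukemias. These are counts over the whole gene, which include exons that a floxed deletion leaves in place.

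In the Dnmt3a f/f retroviral model, 4 of the 10 genes changed between leukemia with FLT3-ITD and thymocytes without it. In KO-ITD against KO-GFP, Cdkn2a rose and Ccnd3, Cdkn1b and Rb1 fell (edgeR quasi-likelihood test, adjusted p below 0.05). Most of the Cdkn2a signal was on its ARF transcript. The background in that comparison is high, since 19.6% of all 15508 genes tested were called, 9.8% as higher and 9.85% as lower. With Dnmt3a intact (WT-ITD against WT-GFP) none of the 10 was called by edgeR, where 2.24% of all genes were (1.35% higher and 0.89% lower). There 5 of the 10 had an unadjusted p below 0.05 in edgeR's test (Ccnd3, Cdk6, Cdkn2a, Cdkn1b and Rb1). The share of all genes with one was not counted, so those 5 cannot be set against a background. DESeq2 called 4 of the 10 and limma voom 2, where those tools called 10.4% and 5.65% of all genes. In the knock-in model Ccnd1 fell and Cdkn1b rose in leukemia against pre-leukemic marrow, where 9.38% of all genes were called, 5.29% as higher and 4.09% as lower.

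**Figure D1:**
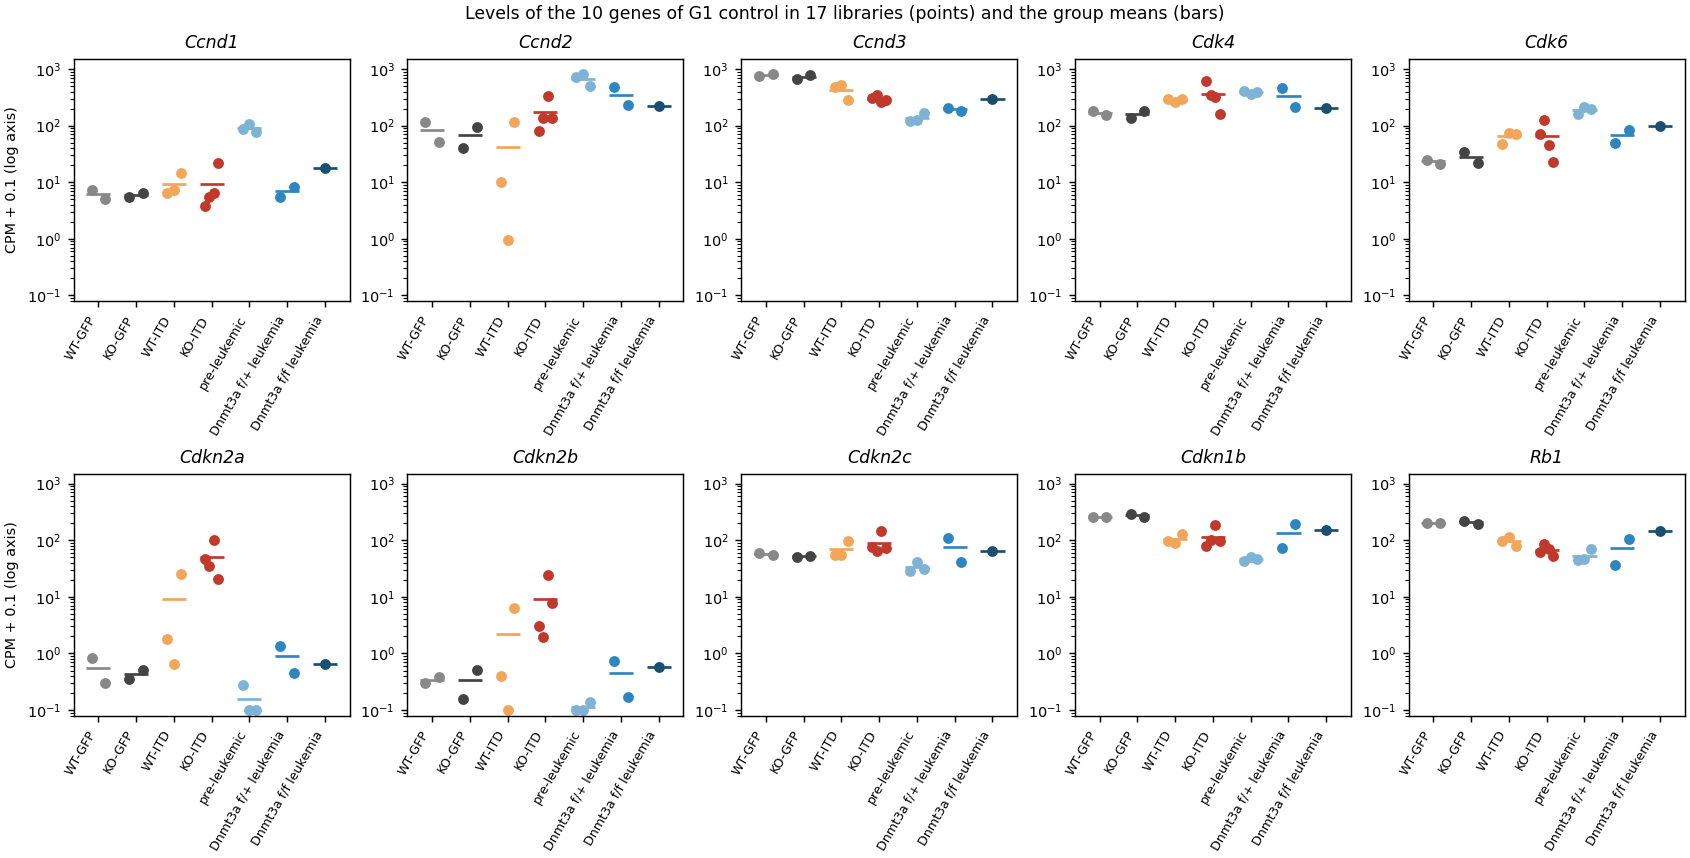
Levels of each gene in CPM plus 0.1 on a log axis for every library (points), with the group mean as a bar. Ccnd3, Cdkn1b and Rb1 sit highest in the 4 GFP libraries, Ccnd1 and Ccnd2 highest in the 3 pre-leukemic libraries, and Cdkn2a lies between 20.6 and 102.7 CPM in the 4 KO-ITD libraries.

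Ccnd3 (mm9 chr17:47642000-47736637, plus strand) was the main D cyclin of the thymocytes. WT-GFP libraries held 758.1 and 805.7 CPM of it, and KO-GFP libraries 680.1 and 780.1. In the leukemias it stood at 478.7, 532.2 and 279.4 CPM in WT-ITD and at 309.3, 344.9, 264.8 and 286.2 in KO-ITD. All 7 retroviral leukemias were below all 4 GFP libraries. The fold change in KO-ITD against KO-GFP was -1.28 on the log2 scale (SE 0.23, edgeR adjusted p = 0.00461), and it was -1.15 (adjusted p = 0.0246) with first-submission libraries alone and -1.36 (adjusted p = 0.0166) with thymus libraries alone. Without KO-GFP 1 the log2 fold change was -1.37 and was not called. Fits without KO-GFP 1 or KO-GFP 2 leave 1 library in that group. Fewer genes were called over all genes in them, here and for the genes below. In WT-ITD against WT-GFP it was -0.86 (SE 0.25, edgeR adjusted p = 0.0895). The difference between both FLT3-ITD effects was -0.42 (SE 0.34, edgeR adjusted p = 0.830). Markers of double-positive thymocytes moved with Ccnd3, since 6 of 12 fell, 1 rose and 5 were not called in KO-ITD against KO-GFP, and their part in the Ccnd3 result was not tested. In these bulk samples fewer cells of a type and less RNA per cell cannot be told apart.

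Ccnd2 (mm9 chr6:127075727-127101066, minus strand), the D cyclin that growth factor signals induce in many blood cells, spread widely within WT-ITD. In WT-ITD it stood at 9.85, 0.86 and 117.4 CPM, so WT-ITD 3 was apart from the other WT-ITD libraries. In KO-ITD it stood at 80.0, 136.2, 333.4 and 139.0 CPM, and in the GFP libraries between 40.4 and 116.1. KO-ITD against WT-ITD gave a log2 difference of 2.01 (SE 1.05, edgeR adjusted p = 0.297). The difference was 4.97 (edgeR adjusted p = 0.0233) without WT-ITD 3. That library was made from whole donor marrow, and it was also above WT-ITD 1 and 2 in the summed markers of stroma (133.4 CPM against 25.9 and 4.11), B cells (76.4 against 5.42 and 1.53) and monocytes (369.5 against 114.9 and 11.5). The GFP libraries had 6.69 to 9.08 CPM of the stromal, 48.8 to 106.0 of the B cell and 72.1 to 102.4 of the monocyte markers. WT-ITD 3 was thus within their range for B cell markers. The part of those markers was not tested. Without WT-ITD 3, Ccnd2 was also lower in WT-ITD than in WT-GFP, at -3.93 (edgeR adjusted p = 0.0467), against -0.97 (SE 1.17, adjusted p = 0.704) with it. Among knock-in libraries it stood at 710.4, 807.9 and 492.7 CPM in pre-leukemic marrow, at 477.3 and 231.8 in Dnmt3a f/+ leukemia and at 223.5 in Dnmt3a f/f leukemia. All 3 pre-leukemic libraries were above all 3 leukemias, but the log2 difference of -1.14 (SE 1.07) did not pass edgeR's test (adjusted p = 0.523).

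Ccnd1 (mm9 chr7:152115836-152125830, minus strand), a target of growth factor and Wnt signals in many tissues, was a gene of the pre-leukemic marrow. It stood at 87.3, 107.1 and 78.7 CPM there, and at 5.45 and 8.09 CPM in Dnmt3a f/+ leukemia and 17.4 in Dnmt3a f/f leukemia. The fall was -3.29 on the log2 scale (SE 0.59, edgeR adjusted p = 0.00899). It was called with each of the 6 libraries left out in turn, at -3.75 to -2.94. In the retroviral model it was low throughout, from 3.69 to 14.3 CPM in 10 of 11 libraries, with KO-ITD 4 at 21.5. KO-ITD 4 also had the highest summed markers of stroma (2811 CPM), of monocytes and macrophages (4817 CPM, against 11.5 to 369.5 in the other retroviral leukemias) and of megakaryocytes (120.8 CPM, against 1.72 to 11.2). Their part in this value was not tested. Granulocyte markers summed to 2658 to 4197 CPM in pre-leukemic marrow and 3543 to 18410 CPM in the knock-in leukemias. All 9 had a positive log2 difference in the same comparison (median 4.27, against 0.002 over all genes), and 2 of 9 were called higher. Their part in the fall of Ccnd1 was not tested.

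Per kilobase of exon, the scale on which genes can be compared, Ccnd3 made up 95.8% ± 1.70 (SD, n = 4) of D cyclin mRNA in the GFP libraries. In the retroviral leukemias it made up 86.4% ± 11.3 (n = 7), and in pre-leukemic marrow 31.0% ± 8.75 (n = 3). Pre-leukemic marrow instead held 57.2% ± 8.41 Ccnd2 and 11.9% ± 0.60 Ccnd1. In the knock-in leukemias Ccnd3 made up 64.2% ± 11.6, Ccnd2 34.1% ± 12.5 and Ccnd1 1.73% ± 0.90 (n = 3). Thus the D cyclin mRNA was nearly all Ccnd3 in thymocytes, mostly Ccnd2 in pre-leukemic marrow and in between in the knock-in leukemias. The summed level of the D cyclins was 349.2 ± 26.8 CPM per kb in the GFP libraries (n = 4), 180.4 ± 34.1 in the retroviral leukemias (n = 7), 201.3 ± 22.4 in pre-leukemic marrow (n = 3) and 157.6 ± 31.6 in the knock-in leukemias (n = 3). The highest retroviral leukemia, at 237.5, was below the lowest GFP library, at 309.4.

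**Figure D2:**
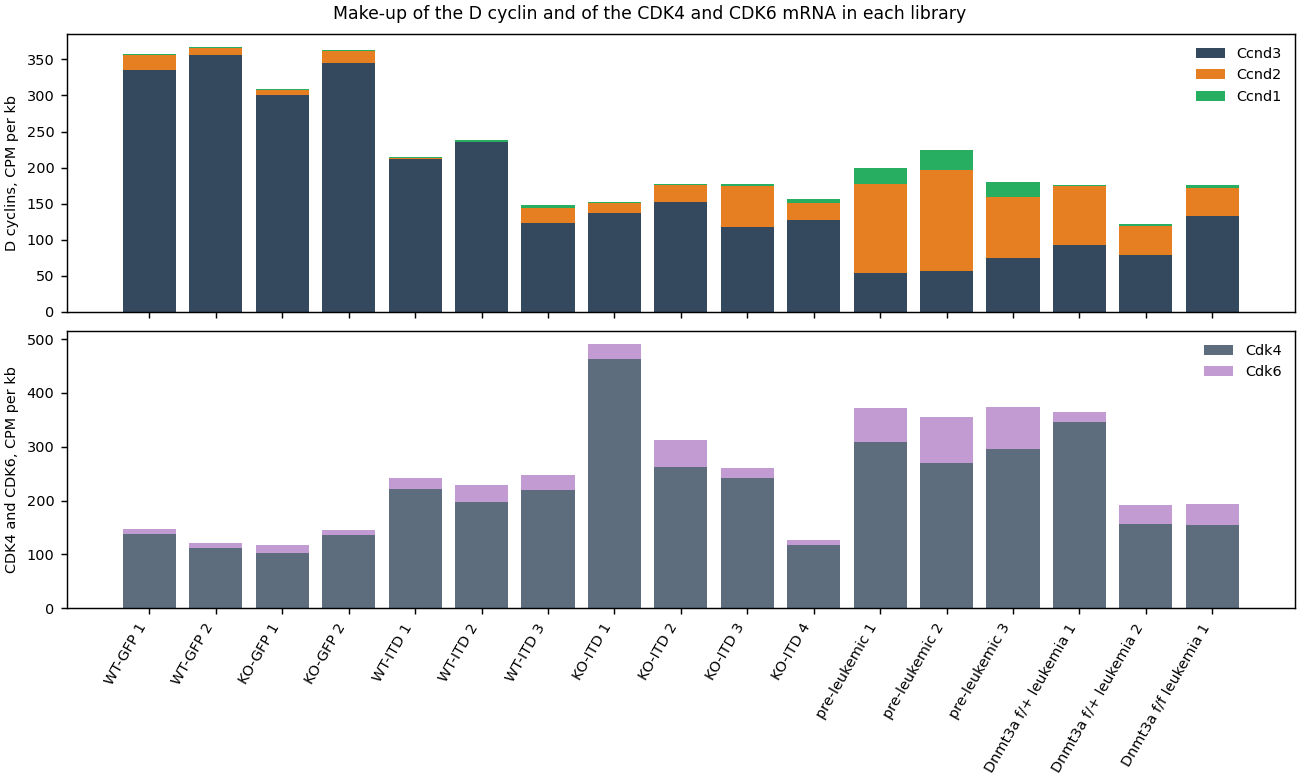
Stacked levels in CPM per kb of exon in each library, D cyclins above and Cdk4 with Cdk6 below. Ccnd3 fills 93.9 to 97.3% of the D cyclin bar in the GFP libraries and 25.1 to 41.0% in pre-leukemic marrow, where Ccnd2 is the largest share.

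Cdk4 (mm9 chr10:126500659-126504338, plus strand) and Cdk6 (mm9 chr5:3344312-3522225, plus strand), the catalytic partners of the D cyclins, were lower in thymocytes than in most other libraries. WT-GFP libraries held 184.8 and 151.7 CPM of Cdk4, and KO-GFP libraries 138.9 and 183.9. It stood at 298.8, 266.8 and 295.5 CPM in WT-ITD and at 622.2, 352.0, 325.1 and 158.9 in KO-ITD. KO-ITD 4 alone fell within the range of the GFP libraries. The log2 difference was 1.18 in KO-ITD against KO-GFP (SE 0.43, edgeR adjusted p = 0.0682) and 0.77 in WT-ITD against WT-GFP (SE 0.44, adjusted p = 0.385). Without KO-ITD 4 the former was 1.43 and was called (edgeR adjusted p = 0.0142), as it was at 1.61 (adjusted p = 0.00867) in first-submission libraries alone. Without KO-ITD 1, the highest library, that difference was 0.79 and was not called. In thymus libraries alone it was 0.62 (edgeR adjusted p = 0.187).

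Cdk6 stood at 21.4 to 34.7 CPM in the 4 GFP libraries and at 48.3, 74.0 and 70.7 in WT-ITD. In KO-ITD it stood at 69.9, 127.5, 45.1 and 22.8 CPM, and again only KO-ITD 4 overlapped the thymocytes. Its log2 difference in KO-ITD against KO-GFP was 1.24 (SE 0.52, edgeR adjusted p = 0.102). It was 1.52 without KO-ITD 4 (edgeR adjusted p = 0.0233), and 0.70 and not called without KO-ITD 2, the highest library. In first-submission libraries it was 1.82 (edgeR adjusted p = 0.0121), but 0.31 in thymus libraries (adjusted p = 0.576). In WT-ITD against WT-GFP it was 1.47 (SE 0.55, edgeR adjusted p = 0.183), and 1.49 in first-submission libraries, where it was called (adjusted p = 0.0337). Cdk6 was highest in pre-leukemic marrow at 159.5, 209.3 and 196.8 CPM, against 50.0, 85.4 and 97.2 in the knock-in leukemias. Those groups did not overlap, and the difference of -1.30 (SE 0.47) missed edgeR's threshold (adjusted p = 0.0933). Cdk4 was at 364.3 to 414.6 CPM in pre-leukemic marrow and at 464.6, 211.6 and 208.8 in the knock-in leukemias, so those groups overlapped. Per kilobase, Cdk4 exceeded Cdk6 in every library, by 3.19 to 4.77 times in pre-leukemic marrow and 7.35 to 15.5 times in the GFP libraries. The sum of both kinases was 132.9 ± 15.8 CPM per kb in the GFP libraries (n = 4) and 272.7 ± 111.0 in the retroviral leukemias (n = 7), so D cyclin mRNA and kinase mRNA stood in opposite order between those sets.

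Cdkn2a (mm9 chr4:88920377-88940523, minus strand) had the largest log2 difference of the 10 genes in KO-ITD against KO-GFP. Its starts are 12427 bp apart: the ARF transcript (NM_009877) begins in an exon at mm9 chr4:88940238-88940523, and the INK4a transcript (NM_001040654) in an exon at chr4:88927890-88928096, and both go on through shared exons. Cdkn2b (mm9 chr4:88952198-88956941, minus strand) lies just upstream. The 250 bases before each start are shown because the series deletes a DNA methyltransferase, and the base pair step that it methylates, CG, is unevenly spread over these starts. They are printed 5′ to 3′ in gene sense from RefSeq on build GRCm38.p6, with each CG in capitals.
ARF start, chr4:89294620-89294869, minus strand: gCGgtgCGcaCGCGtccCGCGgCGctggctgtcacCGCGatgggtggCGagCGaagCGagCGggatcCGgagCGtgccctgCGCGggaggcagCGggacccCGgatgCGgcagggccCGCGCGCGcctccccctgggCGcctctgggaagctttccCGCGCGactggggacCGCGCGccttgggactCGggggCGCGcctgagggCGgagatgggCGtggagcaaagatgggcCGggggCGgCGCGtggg
INK4a start, chr4:89282193-89282442, minus strand: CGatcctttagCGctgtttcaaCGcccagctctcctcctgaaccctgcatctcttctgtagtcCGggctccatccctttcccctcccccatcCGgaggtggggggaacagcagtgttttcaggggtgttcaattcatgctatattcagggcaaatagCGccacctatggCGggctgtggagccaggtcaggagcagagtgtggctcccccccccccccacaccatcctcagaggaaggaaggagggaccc
Cdkn2b start, chr4:89311033-89311282, minus strand: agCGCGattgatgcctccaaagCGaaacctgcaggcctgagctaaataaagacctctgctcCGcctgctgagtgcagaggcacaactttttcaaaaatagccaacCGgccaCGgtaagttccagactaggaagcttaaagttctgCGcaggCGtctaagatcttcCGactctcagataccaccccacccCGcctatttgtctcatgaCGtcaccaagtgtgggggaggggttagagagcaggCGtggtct
The ARF window holds 40 CG, the INK4a window 7 and the Cdkn2b window 12. Among 32851 promoters of the same table and length the median was 6, and 1.31% held at least as many as the ARF window, 46.3% as many as the INK4a window and 33.5% as many as the Cdkn2b window. These are counts of letters, and methylation at these windows was not analysed here.

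Cdkn2a was close to absent in thymocytes, with 18 and 5 counts in WT-GFP (0.72 and 0.20 CPM) and 4 and 8 counts in KO-GFP (0.26 and 0.41 CPM). In KO-ITD it stood at 46.7, 35.6, 102.7 and 20.6 CPM, from 170 to 854 counts. In WT-ITD it stood at 1.67, 0.55 and 24.9 CPM. Thus every KO-ITD leukemia and 1 of 3 WT-ITD leukemias had at least 20 CPM, and every other library of the series had under 2. The log2 fold change in KO-ITD against KO-GFP was 7.23 (SE 1.72, edgeR adjusted p = 0.0143), and it was 6.93 (adjusted p = 0.0309) in first-submission libraries and 7.53 (adjusted p = 0.0231) in thymus libraries. It was called with each KO-ITD library left out, but not without KO-GFP 1 (adjusted p = 0.188) or KO-GFP 2 (adjusted p = 0.0929). In WT-ITD against WT-GFP the log2 fold change was 4.27 (SE 1.49, edgeR adjusted p = 0.158), and 1.28 without WT-ITD 3, where Cdkn2a was also not called.

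The comparison by Dnmt3a genotype was made within the leukemias. KO-ITD against WT-ITD gave 2.51 on the log2 scale (SE 1.09, edgeR adjusted p = 0.227), and the groups overlapped through WT-ITD 3. Without that library the difference was 5.48 (edgeR adjusted p = 0.0179), and over all alternatives the adjusted p ranged from that value to 0.517. In first-submission libraries alone it was 2.19 (adjusted p = 0.363), and in thymus libraries alone 2.24 (adjusted p = 0.319). The difference between both FLT3-ITD effects was 2.97 (SE 1.86, edgeR adjusted p = 0.819). In thymocytes, KO-GFP against WT-GFP gave -0.46 (SE 1.51, adjusted p = 1).

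The deposited transcript counts placed most of the Cdkn2a signal on ARF. Of the Cdkn2a counts, the ARF transcript took 100% in KO-ITD 1 and 2, 87.4% in KO-ITD 3, 53.3% in KO-ITD 4 and 98.2% in WT-ITD 3. In CPM, ARF stood at 46.7, 35.6 and 89.8 in KO-ITD 1 to 3 and 24.5 in WT-ITD 3. The INK4a transcript, which encodes the CDK4 and CDK6 inhibitor, stood at 0, 0, 12.9 and 9.63 CPM in KO-ITD and 0.46 in WT-ITD 3. INK4a signal was thus present in the KO-ITD leukemias from thymus and at 0 in those from marrow, which were also submitted earlier, so tissue and submission cannot be told apart here. These are estimates that divide reads of shared exons between transcripts. The same estimates gave the shorter Ccnd3 transcript 59.8% of Ccnd3 counts in WT-GFP 1 and 5.36% in WT-GFP 2, so a transcript share can differ widely within a group.

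**Figure D3:**
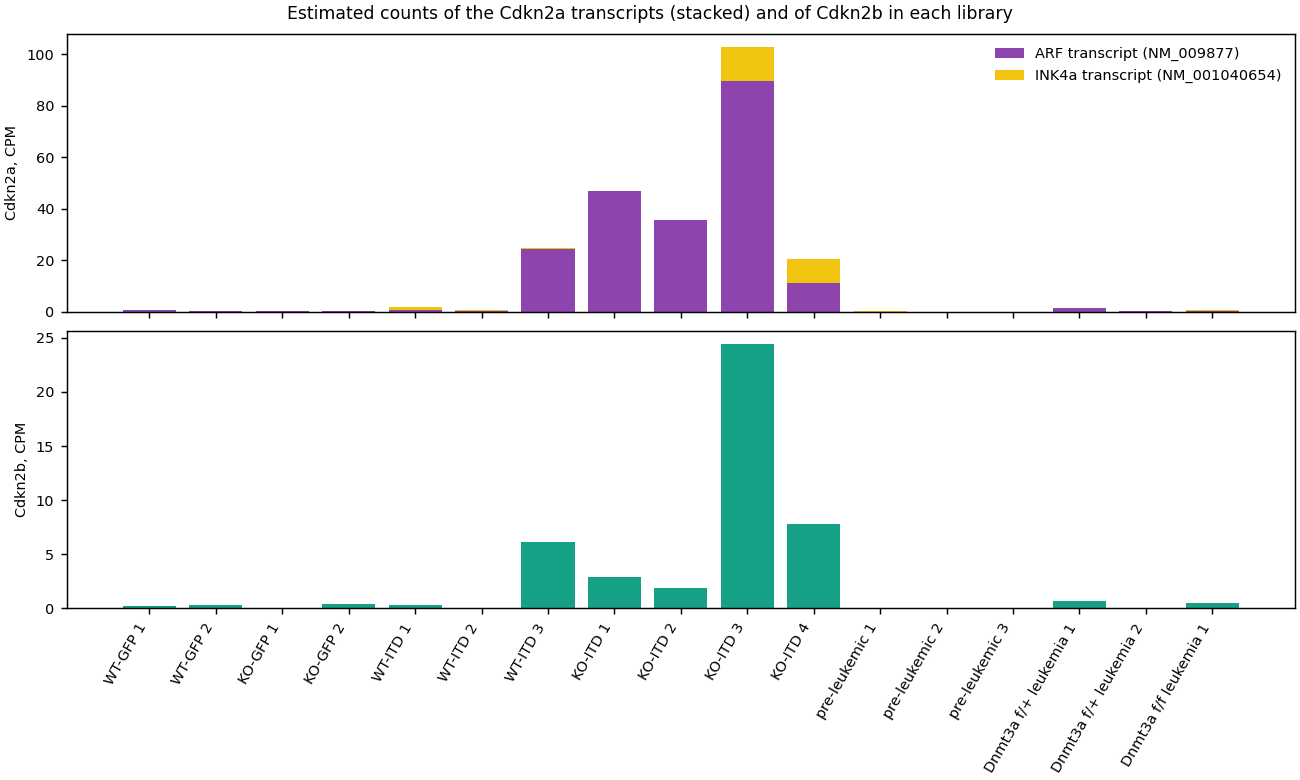
CPM of the ARF and INK4a transcripts of Cdkn2a (stacked, above) and of Cdkn2b (below) in each of the 17 libraries. Both genes are high in the 4 KO-ITD libraries and WT-ITD 3, and the INK4a part is largest in KO-ITD 3 and 4, at 12.9 and 9.63 CPM.

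Cdkn2b, which encodes the INK4 inhibitor p15, followed Cdkn2a at lower level. It stood at 2.93, 1.87, 24.4 and 7.77 CPM in KO-ITD, at 0.30, 0 and 6.14 in WT-ITD and at 0.06 to 0.41 in the GFP libraries. The same 5 leukemias were above 1 CPM. The log2 difference was 5.22 in KO-ITD against KO-GFP (SE 2.01, edgeR adjusted p = 0.0793), 6.05 in thymus libraries (adjusted p = 0.0382) and 3.29 in first-submission libraries (adjusted p = 0.240). In log2 CPM over the 17 libraries Cdkn2b was among the 3 genes most like Cdkn2a (Pearson r = 0.926), after Mybpc2 (0.955) and Col26a1 (0.931). Mtap, the next gene on one side, stood at 32.1 to 44.1 CPM in the GFP libraries and 78.5 to 157.6 in KO-ITD and rose by 1.63 (log2, SE 0.45, edgeR adjusted p = 0.0257). Dmrta1, the next on the other side, was at most 1.44 CPM in any library, and the further neighbours Gm12603 and Zfp352 were listed at 0 in every library.

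Stromal markers rose with Cdkn2a and Cdkn2b, since 9 of 9 were called higher in KO-ITD against KO-GFP. In 6 of the 7 retroviral leukemias the summed stromal markers and Cdkn2a stood in the same order. From low to high, the stromal sums were 4.11 CPM in WT-ITD 2, 25.9 in WT-ITD 1, 133.4 in WT-ITD 3, 137.5 in KO-ITD 2, 259.5 in KO-ITD 1 and 676.8 in KO-ITD 3. Cdkn2a stood at 0.55, 1.67, 24.9, 35.6, 46.7 and 102.7 CPM in the same libraries. KO-ITD 4 departed from that order, with 2811 CPM of stromal markers and 20.6 CPM of Cdkn2a. The part of the stromal markers in the result was not tested.

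In the knock-in model both genes were near the limit of detection. Cdkn2a had 1, 0 and 0 counts in pre-leukemic marrow and 20, 5 and 10 in the leukemias, or 35 against 1 count, a ratio of 24.99 (95% exact counting interval 4.20 to 1015). Cdkn2b had 20 against 1 count, a ratio of 14.3 (2.28 to 591.8). Those intervals cover counting error only. Across libraries the edgeR adjusted p was 0.178 for Cdkn2a and 0.292 for Cdkn2b. All 7 retroviral leukemias together had more Cdkn2a than the 3 knock-in leukemias, by 5.08 on the log2 scale (SE 1.25, edgeR adjusted p = 0.00743), where 32.8% of all genes were called, 15.3% as higher and 17.5% as lower. WT-ITD 2, at 0.55 CPM, lay within the range of the knock-in leukemias. The difference was called with each library left out, from 4.30 without WT-ITD 3 to 5.77. Model, cell type, sort and, for most libraries, submission cannot be told apart in it.

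Cdkn2c (mm9 chr4:109333481-109337977, minus strand), which encodes the INK4 inhibitor p18, was present everywhere and varied least of the INK4 genes. It stood at 51.3 to 59.7 CPM in the GFP libraries, at 54.8, 54.0 and 97.4 in WT-ITD and at 75.2, 64.7, 145.4 and 72.7 in KO-ITD. KO-ITD lay above KO-GFP without overlap, at a log2 difference of 0.79 (SE 0.42) that did not pass edgeR's test (adjusted p = 0.178). In pre-leukemic marrow it stood at 28.3, 40.4 and 30.9 CPM and in the knock-in leukemias at 110.1, 40.9 and 63.6. That difference was 1.11 (SE 0.39, edgeR adjusted p = 0.0857). It ran from 0.62 without Dnmt3a f/+ leukemia 1, the highest leukemia, to 1.34 without Dnmt3a f/+ leukemia 2, the lowest. Per kilobase, Cdkn2c was above both Cdkn2a and Cdkn2b in every one of the 17 libraries, at 25.6 to 131.5 CPM per kb.

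Cdkn1b (mm9 chr6:134870419-134875543, plus strand), the p27 gene, was higher in the thymocytes than in any leukemia library. WT-GFP libraries held 257.2 and 258.4 CPM of it, and KO-GFP libraries 294.4 and 258.6. It stood at 94.96, 90.03 and 130.2 CPM in WT-ITD and 78.1, 100.8, 186.4 and 98.3 in KO-ITD. No retroviral leukemia reached the GFP libraries. The double-positive thymocyte markers, of which 6 of 12 fell in KO-ITD against KO-GFP (median -1.73), moved with Cdkn1b, and their part was not tested. The log2 fold change was -1.25 in KO-ITD against KO-GFP (SE 0.36, edgeR adjusted p = 0.0287) and -1.30 in WT-ITD against WT-GFP (SE 0.38, adjusted p = 0.101), the latter called at -1.28 in first-submission libraries (adjusted p = 0.00838). In KO-ITD it was -1.61 (adjusted p = 0.00377) in first-submission libraries and -0.92 (adjusted p = 0.0647) in thymus libraries. The call was lost without KO-GFP 1 (adjusted p = 0.222), KO-GFP 2 (0.0937) or KO-ITD 1 (0.0619).

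In the knock-in model Cdkn1b moved the other way. It stood at 43.6, 50.9 and 46.7 CPM in pre-leukemic marrow and at 72.1, 196.7 and 151.0 in the leukemias. The rise was 1.57 on the log2 scale (SE 0.36, edgeR adjusted p = 0.0214), with no overlap. The call was lost without any 1 of the pre-leukemic libraries (edgeR adjusted p of 0.0714 to 0.0792). In those fits 1.48% to 2.92% of all genes were called, against 9.38% with all libraries. The lowest leukemia, Dnmt3a f/+ leukemia 1, also had the lowest granulocyte marker sum of the knock-in leukemias, at 3543 CPM, against 18410 and 14410 in the others, and their part in the result was not tested.

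Rb1 (mm9 chr14:73595309-73725598, minus strand), which encodes the substrate of the D cyclin kinases, fell beside Cdkn1b in KO-ITD against KO-GFP. It stood at 201.3 and 201.5 CPM in WT-GFP, 222.7 and 192.1 in KO-GFP, 95.4, 111.8 and 78.1 in WT-ITD and 61.0, 87.2, 68.6 and 52.4 in KO-ITD. All 7 leukemias were below all 4 GFP libraries. The log2 fold change was -1.62 in KO-ITD against KO-GFP (SE 0.34, edgeR adjusted p = 0.00865), -1.47 (adjusted p = 0.00561) in first-submission libraries and -1.73 (adjusted p = 0.00615) in thymus libraries. It was not called without KO-GFP 1 (adjusted p = 0.122). As for Cdkn1b, the part of the falling thymocyte markers was not tested. In WT-ITD against WT-GFP it was -1.08 (SE 0.36, edgeR adjusted p = 0.144), and it was called at -1.07 in first-submission libraries (adjusted p = 0.0178) and -1.20 in thymus libraries (adjusted p = 0.0357). Among knock-in libraries Rb1 stood at 43.9, 46.0 and 69.2 CPM before leukemia and at 36.1, 107.1 and 145.4 in leukemia. The log2 difference was 0.77 (SE 0.33, edgeR adjusted p = 0.150). It ran from 0.43 without Dnmt3a f/f leukemia 1, the highest leukemia, to 1.23 without Dnmt3a f/+ leukemia 1, the lowest.

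**Figure D4:**
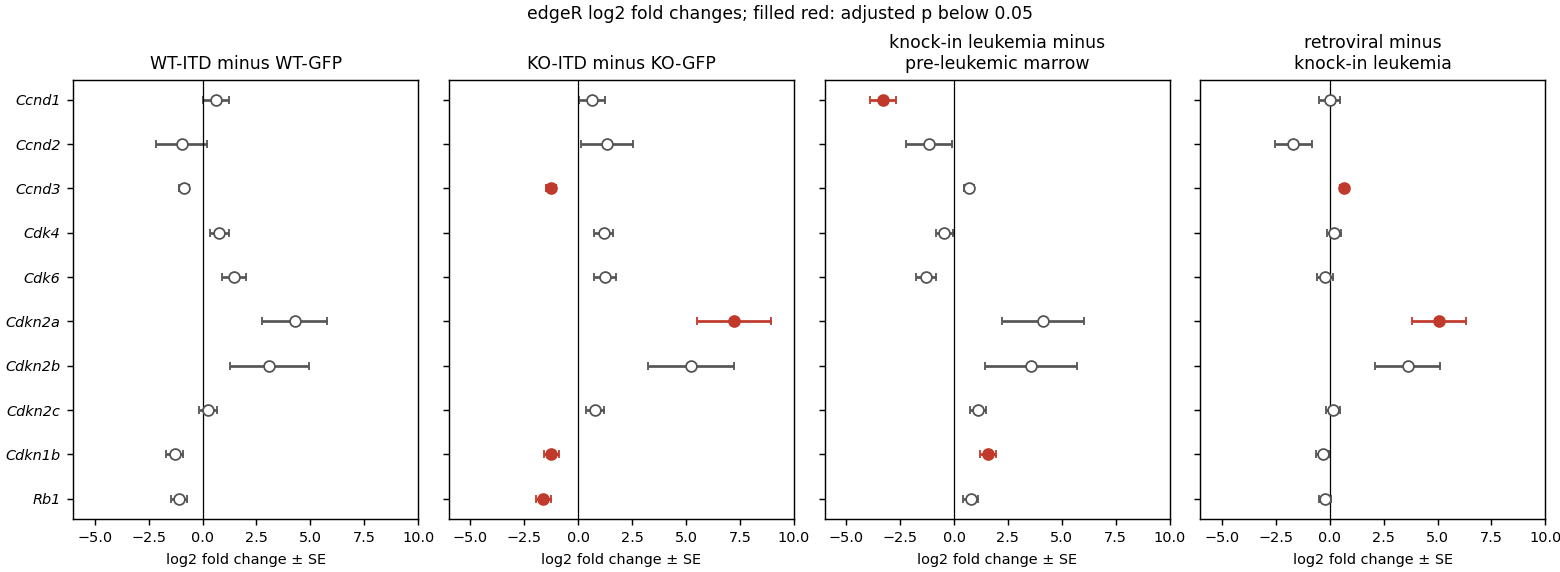
Log2 fold changes with SE from the edgeR fit for the 10 genes in 4 comparisons, filled red where the adjusted p was below 0.05. The calls are Ccnd3, Cdkn2a, Cdkn1b and Rb1 in KO-ITD against KO-GFP, Ccnd1 and Cdkn1b in the knock-in model, and Ccnd3 and Cdkn2a between the leukemia models.

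Counted over all 10 genes, 5 did not overlap between WT-ITD and WT-GFP and 6 between KO-ITD and KO-GFP, where 45.7% and 44.8% of all tested genes did not overlap. Both retroviral comparisons thus had a share near the background. Between knock-in leukemia and pre-leukemic marrow 8 of 10 did not overlap, against 32.8% of all genes. Those 8 include Cdkn2a and Cdkn2b, with 0 or 1 count in each pre-leukemic library. For Cdkn2b the highest pre-leukemic and the lowest leukemia library each held 1 count (0.04 and 0.07 CPM). For Cdkn2c those libraries stood at 40.35 and 40.93 CPM. Between KO-GFP and WT-GFP 2 of 10 did not overlap (Cdkn2c and Cdkn1b), against 37.9% of all genes, between KO-ITD and WT-ITD 0 of 10, against 11.1%, and between the leukemia models 0 of 10, against 18.7%. Between KO-ITD and WT-ITD no gene of the 10 was called by edgeR, DESeq2 or limma voom. Over all genes edgeR called 0.49% (0.206% higher and 0.284% lower), DESeq2 9.19% and limma voom 1.19%. Ccnd3 and Cdkn2a had an unadjusted p below 0.05 in edgeR's test, and the share of all genes with one was not counted. Between KO-GFP and WT-GFP, and for the difference of both FLT3-ITD effects, none was called by any of these tools or had an unadjusted p below 0.05. Over all genes edgeR and limma voom called 0% in both, and DESeq2 called 0.0789% and 0.597%. Between the retroviral and the knock-in leukemias Ccnd3 was also higher in the former, by 0.65 (SE 0.19, edgeR adjusted p = 0.0205). That call was lost without either Dnmt3a f/+ leukemia (adjusted p of 0.0638 and 0.129). Ccnd2 was lower there, at -1.68 (SE 0.84, edgeR adjusted p = 0.144), and called at -2.50 without WT-ITD 3 (adjusted p = 0.00691).

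Ordered by group mean, Ccnd3 ran from pre-leukemic marrow (138.3 CPM) through Dnmt3a f/+ leukemia (193.1), Dnmt3a f/f leukemia (298.8), KO-ITD (301.3), WT-ITD (430.1) and KO-GFP (730.1) to WT-GFP (781.9). Of the 6 pairs of neighbours 3 overlapped: Dnmt3a f/f leukemia with KO-ITD, KO-ITD with WT-ITD, and both GFP groups. Cdkn1b and Rb1 were also lowest in pre-leukemic marrow (47.05 and 53.05 CPM) and highest in KO-GFP (276.5 and 207.4). Ccnd1 and Cdk6 had the reverse top, with pre-leukemic marrow highest (91.03 and 188.5 CPM), and no neighbour below it overlapped it. Their lowest groups were KO-GFP for Ccnd1 (5.91 CPM) and WT-GFP for Cdk6 (23.2 CPM), each overlapping the other GFP group. Ccnd2 was also highest in pre-leukemic marrow (670.3 CPM), and lowest in WT-ITD (42.7), which overlapped KO-GFP (68.00). Cdk4 ran from KO-GFP (161.4 CPM) to pre-leukemic marrow (391.9), which overlapped KO-ITD (364.5). The INK4 genes Cdkn2a, Cdkn2b and Cdkn2c were each lowest in pre-leukemic marrow and highest in KO-ITD, and KO-ITD overlapped the next group below it for all 3. Over the 17 libraries, log2 CPM of Rb1 and Cdkn1b had Pearson r = 0.838 (Spearman rho 0.816), Ccnd3 and Rb1 0.831 (0.799), and Ccnd3 and Cdkn1b 0.752 (0.694). Cdk4 ran against them, at -0.768 (-0.824) with Cdkn1b and -0.754 (-0.784) with Rb1. These are descriptions over libraries that share groups and tissues. The 3 genes most like Ccnd3 in pattern were Abhd13 (r = 0.967), Pvr (0.966) and Plekhg2 (0.958), and those most like Rb1 were Usp45 (0.954), Zfp597 (0.952) and Prr14 (0.952). Those most like Ccnd1 were Slc16a12 (0.967), Itgb6 (0.933) and Pcdh7 (0.932). For Ccnd2 they were Samsn1 (0.93), Emilin1 (0.927) and Rnf130 (0.926), for Cdk4 Sssca1 (0.959), Ndufa4 (0.949) and Ranbp1 (0.947), and for Cdk6 Polr1a (0.912), Igf1r (0.907) and Gbp3 (0.895). For Cdkn2b they were Klk1b27 (0.964), Dpt (0.932) and Cdkn2a (0.926), for Cdkn2c Ube2d2a (0.895), Agpat4 (0.879) and H3f3b (0.858), and for Cdkn1b they included A430093F15Rik (0.948) and 1600012H06Rik (0.937).

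Other parts of the same pathway were read from gene lists. For scale, edgeR called 19.6% of all genes in KO-ITD against KO-GFP and 9.38% in the knock-in model. Whether the counts of the lists differ from those shares was not tested. Of 5 tested genes around cyclin E and CDK2, only Cdk2 changed in KO-ITD against KO-GFP, at -1.35 on the log2 scale (SE 0.43, edgeR adjusted p = 0.0443), and the list's median was -0.35 against 0.19 over all genes. Of the 3 other CDK inhibitors, Cdkn1a, the p21 gene and a p53 target, rose by 4.19 (SE 1.16, edgeR adjusted p = 0.0259) in that comparison, and the list's median was -0.70. Cdkn1a stood at 1.21 and 4.61 CPM in KO-GFP and at 16.7, 35.8, 74.6 and 87.6 in KO-ITD. In the knock-in leukemias Cdkn2d, the p19 member of the INK4 family, rose by 2.21 (SE 0.30, edgeR adjusted p = 0.00287), from 2.64 to 3.56 CPM before leukemia to 8.85 to 22.6.

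Of 12 pocket protein and E2F genes, 3 fell and 9 were not called in KO-ITD against KO-GFP, where 9.85% of all genes were called lower. Those that fell were E2f7 at -2.63 (SE 0.48, edgeR adjusted p = 0.00480), E2f2 at -2.33 (SE 0.54, adjusted p = 0.0125) and the Rb1 relative Rbl2 at -0.99 (SE 0.27, adjusted p = 0.0240). In the knock-in leukemias E2f2 rose instead, by 2.24 (SE 0.56, edgeR adjusted p = 0.0280), and the other 11 were not called. None of 16 E2F target and replication genes and none of 10 mitosis genes was called by edgeR in any of the 7 comparisons. Their medians in KO-ITD against KO-GFP were 0.19 and -0.56, against 0.19 over all genes.

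Of the 5 genes in the ARF and p53 list, 1 rose, 2 fell and 2 were not called in KO-ITD against KO-GFP, with a median of 0.31. Over all genes 9.8% were called higher and 9.85% lower there. Mdm4 fell, at -2.06 (SE 0.38, edgeR adjusted p = 0.00536) and Mdm2, the target of ARF, at -0.63 (SE 0.17, adjusted p = 0.0234), and Cdkn1a was the member that rose. Of 8 Polycomb and other regulators of Cdkn2a, Dmtf1, an activator of ARF, fell, at -1.51 (SE 0.20, adjusted p = 0.00101) and the Polycomb-linked demethylase gene Kdm2b, at -1.13 (SE 0.21, adjusted p = 0.00604). The other 6 were not called, and the list's median was -0.47. Trp53 fell, at -1.31 (SE 0.30, edgeR adjusted p = 0.0225) in the knock-in leukemias, from 294.2 to 320.4 CPM to 80.0 to 210.0.

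Of 9 upstream transcription regulators, 3 rose and 2 fell with deleted Dnmt3a, and 1 rose and 1 fell with intact Dnmt3a. Over all genes 19.6% and 2.24% were called in those comparisons. Myc rose in both retroviral comparisons, by 2.03 (SE 0.30, edgeR adjusted p = 0.00177) with deleted Dnmt3a and 1.71 (SE 0.30, adjusted p = 0.0123) with intact Dnmt3a. Bcl6, a repressor, fell in both, at -5.52 (SE 0.76, adjusted p = 0.00112) and -4.35 (SE 0.81, adjusted p = 0.0158). Notch3 rose by 2.65 (SE 0.72, edgeR adjusted p = 0.0248) with deleted Dnmt3a, beside Notch1, while Stat5b fell. In the knock-in leukemias Myc fell, at -1.44 (SE 0.26, adjusted p = 0.00899) and Stat5a, at -1.35 (SE 0.20, adjusted p = 0.00341), the only members of that list called. Of 7 genes for the turnover of D cyclins and p27, Fbxo4 rose by 1.99 (SE 0.45, edgeR adjusted p = 0.0120), and Gsk3b fell, at -0.85 (SE 0.19, adjusted p = 0.0102) and Ambra1, at -0.63 (SE 0.21, adjusted p = 0.0479) in KO-ITD against KO-GFP, and none was called in the knock-in model.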

How the data were processed

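PolyA-selected RNA was sequenced from TruSeq libraries. Reads were aligned to mm9 with TopHat2 2.0.10 and quantified with Cufflinks 2.1.1 and Cuffdiff 2.1.1 or 2.2.1, per the submitters' processing notes. The deposited gene and transcript tables hold the authors' estimated counts, while the step that wrote them and the use of strand are not stated by any source read for this work. The 19 GEO samples give 17 libraries, since both runs of each WT-GFP replicate share 1 deposited value. FPKM files were not used here.

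Estimated counts were rounded, and edgeR 4.0.16 (filterByExpr, TMM, quasi-likelihood test) was fitted once on the 17 libraries in 7 groups, under R 4.3.3. Benjamini-Hochberg adjustment ran over 15508 genes, and genes with an adjusted p below 0.05 were called. CPM per kb used the union exon length of the deposited gene models. The fit was tested on simulated data. DESeq2 1.42.0, limma voom 3.58.1, RLE factors, no filter, a replicate block, fits on the compared groups alone, on the first submission or on thymus libraries, and leaving out each library were the alternatives. The members and lists were chosen with earlier results of these data known. Named beside the 10 genes are up to 3 called genes of a list by size of change, the 3 genes most correlated with a member (1 such gene is not reported here), and the 2 nearest gene models on each side of Cdkn2a and Cdkn2b. Dnmt3a is named as the targeted gene, and Myc and Stat5b in KO-ITD against KO-GFP were named after their values were seen.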

Additional observations from a re-analysis of the deposited data

Results flagged for a closer look

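In KO-ITD, the only group with enough libraries for the check, Ccnd1 in KO-ITD 4 stood at 21.5 CPM, far from the other 3 libraries: its gap to the nearest was 0.856 of the group's range, above Dixon's critical value of 0.829. Cdkn2c in KO-ITD 3 stood at 145.4 CPM, with a gap of 0.87 of the range. These were 2 of 10 genes checked, where chance gives about 1 in 20. KO-ITD 4 also had the highest sums of stromal (2811 CPM), monocyte and macrophage (4817 CPM) and megakaryocyte (120.8 CPM) markers among the retroviral leukemias, and KO-ITD 3 had 676.8 CPM of stromal markers. The part of those markers was not tested.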

How the results depend on the processing

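Counts of called members moved most with the tool and with the libraries in the fit. In WT-ITD against WT-GFP, edgeR called 0 of 10 (2.24% of all genes), DESeq2 4 (10.4%), limma voom 2 (5.65%), the fit on the compared groups alone 4 (7.18%), the first submission alone 3 (9.62%), thymus libraries alone 1 (2.08%) and the replicate block 1 (3.66%). In KO-ITD against KO-GFP, DESeq2 called 7 (34.3% of all genes) where edgeR called 4 (19.6%). In the knock-in model, DESeq2 called 6 (21.2%), the replicate block 4 (9.79%) and the compared groups alone 1 (4.42%), against 2 (9.38%). Between the leukemia models the compared groups alone gave 1 (19.4%) against 2 (32.8%). Leaving out 1 library gave 0 to 1 calls for WT-ITD against WT-GFP, 0 to 6 for KO-ITD against KO-GFP, 0 to 3 for KO-ITD against WT-ITD, 0 to 0 for KO-GFP against WT-GFP and for the difference of effects, and 1 to 3 for each of the other 2 comparisons. The share of all genes called moved as well. In WT-ITD against WT-GFP it was 0.801%, 1.19% and 3.93% without WT-ITD 1, 2 and 3, and only the last fit called a member. In KO-ITD against KO-GFP, 4, 4 and 6 members stood beside 25.5%, 17.3% and 21.2% without KO-ITD 2, 3 and 4. Without KO-ITD 1 both the members (3) and the share were lower. In KO-ITD against WT-ITD, 3 members stood beside 3.24% without WT-ITD 3, but 0 beside 4.14% without KO-ITD 2. In the knock-in model 1 member stood beside 2.26%, 1.48% and 2.92% without pre-leukemic 1, 2 and 3. The cause of these differences was not tested.

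Of 311 single-gene results under the other alternatives, 272 kept direction and side of the threshold, 32 passed it, 4 lost it and 3 reversed. Reversed were Cdkn2b in WT-ITD against WT-GFP (-0.30 with the replicate block) and Ccnd1 in KO-ITD against KO-GFP (-0.38 with the replicate block, -0.37 in the first submission). With 1 library left out, 248 of 275 kept both and 5 reversed: Cdkn2b (-0.61 to 3.69) and Cdkn2c (-0.049 to 0.405) in WT-ITD against WT-GFP, Ccnd1 in KO-ITD against KO-GFP (-0.21 to 0.89), and Cdkn2a (-1.09 to 0.70) and Cdk6 (-0.094 to 0.578) in KO-GFP against WT-GFP. Whether replicate numbers pair libraries was checked on deviations from the group means. Of 33 same-number pairs, 3 had a correlation over 0.1 (-0.287 to 0.369), and 3 of 16 libraries matched best with their own number. In groups of 2 libraries these deviations mirror each other, so the pairs are not independent and the check cannot exclude pairing. Under the replicate block 6 members were called in KO-ITD against KO-GFP (15.7% of all genes) and 3 between the leukemia models (34.9%).

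With 2 libraries in each GFP group, every call against KO-GFP rests on few controls. Without KO-GFP 1 or KO-GFP 2 that group holds 1 library, and fewer genes were called, both among the 10 and over all genes. A call lost in those fits thus does not set the 10 genes apart. Cdkn2b in WT-ITD against WT-GFP and in the knock-in model, and Cdkn2a and Cdkn2b in KO-GFP against WT-GFP, gave no value when only the compared groups were fitted, since too few counts passed the filter. Cdkn2a and Cdkn2b had 0 or 1 count per library in pre-leukemic marrow, which limits any fold change there.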
